A study of Mus musculus with 8 samples.

Results

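The genes for proteasome subunits and their partner proteins were followed through an RNA immunoprecipitation (RIP) with an antibody against DAZL in fetal mouse gonads. In RIP an antibody captures an RNA-binding protein on beads together with its bound RNA (IP), and this RNA is compared with that of the lysate before capture (input). The members were all non-control probes of the array whose gene symbol was Psma, Psmb, Psmc, Psmd, Psme, Psmf or Psmg followed by a number, which gave 66 of the 41174 non-control probes and 43 of the 27845 gene names that these carry. Of these genes, 25 had 1 probe and 18 had several, so that probes of the same gene share a target. Whole gonads of strain MCH embryos at E14.5 were used in lots of 50, with no transgene, deletion or drug named in the labels. There were 4 groups of 2 arrays each: XX input, XX IP, XY input and XY IP. The inputs were 5% of the cleared lysate, and the IPs were made with an anti-Dazl antibody from Abcam on beads. The labelling started from 50 ng of RNA for the inputs and 1 ng for the IPs, with Cy3 as the only dye on each array. A control antibody was used on none of these arrays, and recovery was measured against the input alone. The XX arrays lay on 1 slide and the XY arrays on another. The comparisons of IP with input therefore stayed within a slide, whereas slide and sex cannot be told apart between the inputs. The labels do not say whether the arrays of a group came from separate lots, and the p-values measure only the spread between these arrays.

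The proteasome degrades proteins that carry chains of ubiquitin. Its barrel-shaped core particle is built from rings of alpha subunits, which gate the entrance, and rings of beta subunits, some of which cut the substrate, and a regulatory particle on its end holds ATPases that unfold the substrate and non-ATPase subunits that bind it and remove its ubiquitin. Other proteins cap the core in place of the regulatory particle, inhibit it, or help to assemble it. Proteasomes are present in every cell of the gonad, with a few subunits restricted to germ cells or to immune cells, while DAZL is a germ cell protein that binds mRNA.

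Signals are given as normalized log2 signals, the log2 intensity of a probe relative to the 75th percentile of its array. A difference is the mean of the IP arrays minus that of the input arrays on this scale, and levels were not compared between probes. Testing was limited to the 18265 probes that stood well above background on both arrays of 1 group or more. Enriched and depleted mean a change of 4-fold or more in the IP together with an adjusted p under 0.05. The inputs had 16713 to 20391 probes well above background per array and the IPs 6068 to 9468. Dazl, whose mRNA was among the germ cell markers, rose by 2.69 in the IP of XX gonads and by 2.06 in that of XY gonads, and the Sertoli cell markers Sox9, Amh, Dhh and Cst9 were all lower in the XX than in the XY inputs. Over all tested probes, 14% were enriched and 9.91% depleted in XX, and 10.2% and 7.68% in XY. The germ cell list had 2 of 8 members enriched and 1 depleted in XX, and 2 enriched in XY, while both measured erythroid markers were depleted in both sexes and none of 3 measured leukocyte markers was called in either. Of the supporting cells of the ovary, 2 of 4 markers were measured, both depleted in XX. The list had 1 call of enriched in XY, for Fst, whose XY arrays were all at background, so that it gives no change there, and Foxl2 was not well above background on any input array. Sertoli cell markers gave 1 depleted of 4 in XY, and in XX 1 call of enriched, for Amh, which was above background on no XX array and gives no change there either. Leydig cell markers gave 0 calls of 3 in XX and 1 depleted in XY, and both measured endothelial markers were depleted in XX and neither in XY. The part of cell composition in the results below was not tested.

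Of the 66 probes, 1 probe of Psmd7 was left out because its spots were marked as outliers, 9 did not reach the signal needed for testing, and 56 probes for 42 genes were tested. Psmb8, the immunoproteasome subunit that takes the place of Psmb5, was the gene without a tested probe, as each of its 2 probes was well above background on 1 of the 8 arrays. The other probes not tested belonged to Psma2, Psmc2, Psmd4, Psmd11, Psme4 (2 probes) and Psmf1. All 56 tested probes were well above background on all 4 input arrays. In the XX IP, 29 of them were so on both arrays, 13 on 1 and 14 on none, and in the XY IP the numbers were 29, 15 and 12. Because every tested probe entered through the inputs, counts of depleted probes are also given for the 29 probes of each sex that were above background on all 4 of its arrays.

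Proteasome mRNAs were mostly less abundant with DAZL than in the lysate in both sexes, and the germ cell subunit gene Psma8 went the other way. In the XX IP, 17 of the 56 probes were depleted, against 9.91% of all tested probes, and 2 were enriched, against 14%. In the XY IP, 17 were depleted, against 7.68% of all, and 1 was enriched, against 10.2%. The median difference of the members was -1.15 in XX and -1.50 in XY, beside 0.09 and -0.03 over all tested probes. Without the fold minimum, 29 probes in XX were lower at an adjusted p under 0.05 (22.8% of all tested probes) and 2 higher (25.9%), and in XY 32 were lower (20.6%) and 1 higher (20.2%). Among the 29 probes above background on all 4 XX arrays, 5 were depleted (7.15% of all such probes), 2 were enriched (26.5%) and the median was -1.12, beside 0.77 over all such probes. For the 29 such probes of XY the depleted were 6 (5.82%), the enriched 1 (19.5%) and the median -1.05, beside 0.33. Without the first XX IP array, 10 probes were depleted in XX (8.01% of all tested probes), and without the first XY IP array, 9 were depleted in XY (5.77%). With arrays scaled to their 50th percentile, no member was enriched in XX and 1 in XY (1.03% and 1.20% of all tested probes), and 44 were depleted in each sex, beside 47.3% of all in XX and 45.9% in XY. The median of all tested probes then moved to -1.92 in XX and -1.90 in XY.

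**Figure D1:**
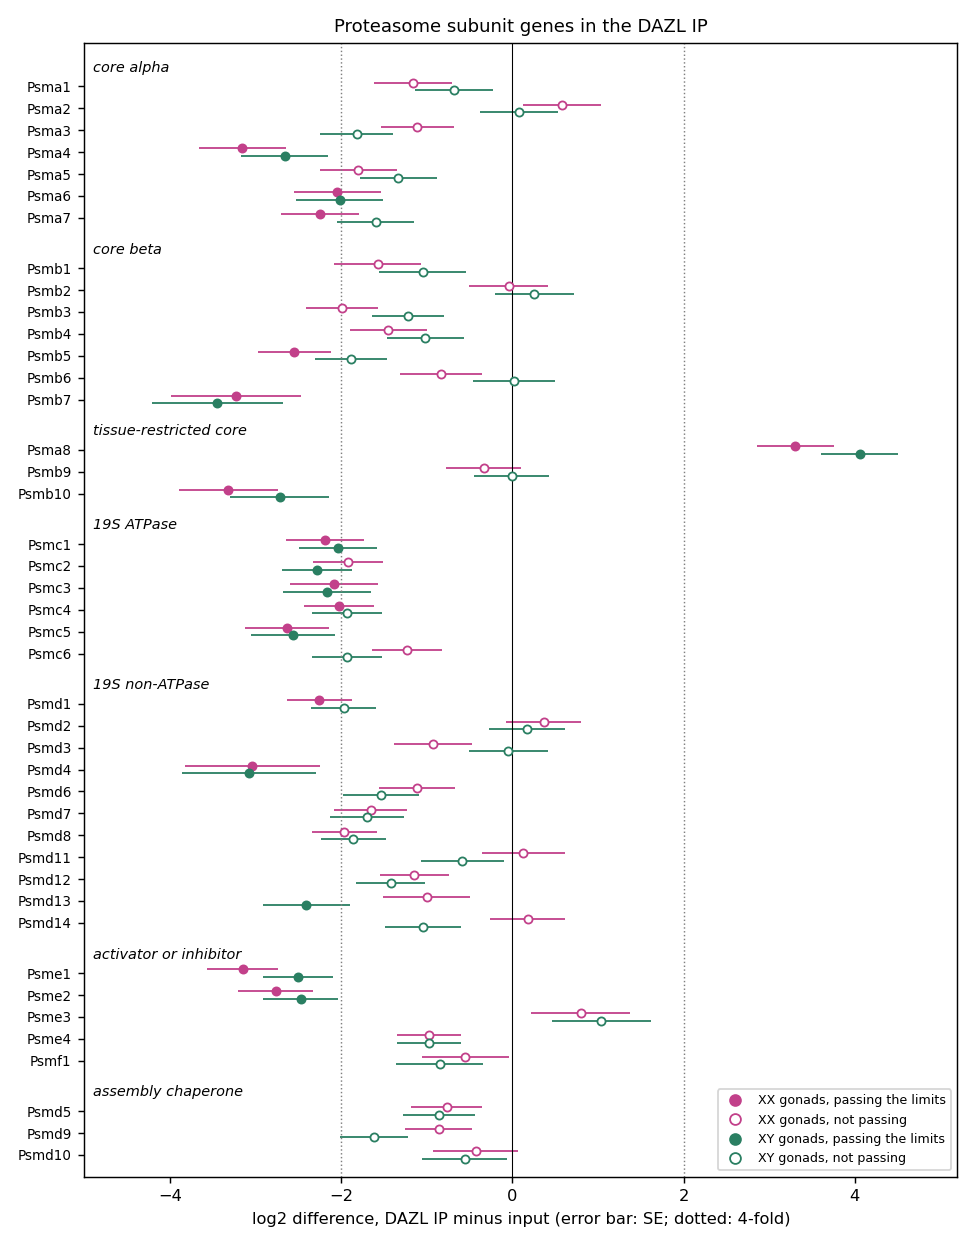
Log2 difference of DAZL IP minus input for the 42 tested proteasome genes, 1 probe per gene, in XX (pink) and XY (green) gonads, with the standard error of the fit as bars and 4-fold marked by dotted lines. Filled points passed the limits: 14 genes lay below in XX and 12 in XY, and Psma8 alone lay above in each.

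With each gene represented by its probe of highest mean signal, 14 genes were depleted in XX and 12 in XY, beside 9.91% and 7.68% of all tested probes. Of these genes 10 were depleted in both sexes, and 36 of the 42 genes had a negative difference in each sex. Of the 24 genes of each sex that were above background on all 4 of its arrays, 4 were depleted in XX and 5 in XY, beside 7.15% and 5.82% of all such probes. The genes depleted in both sexes were Psma4, Psma6, Psmb7, Psmb10, Psmc1, Psmc3, Psmc5, Psmd4, Psme1 and Psme2. Psma7, Psmb5, Psmc4 and Psmd1 passed the limits in XX alone and Psmc2 and Psmd13 in XY alone, which is no test of a difference between the sexes. Both IP arrays lay below both input arrays for 39 probes in XX and 41 in XY, an order found for 37.5% and 37.1% of all tested probes. The reverse order held for 5 probes in XX and 4 in XY, against 40.2% and 35.4% of all. The input arrays were the more repeatable: over the 56 probes, the median distance between the 2 input arrays was 0.150 in XX and 0.152 in XY, and that between the 2 IP arrays 0.723 and 0.824. The second IP array was the higher for 44 of the 56 probes in XX and 46 in XY, by a median of 0.68 and 0.77, beside 0.34 and 0.39 over all tested probes.

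**Figure D2:**
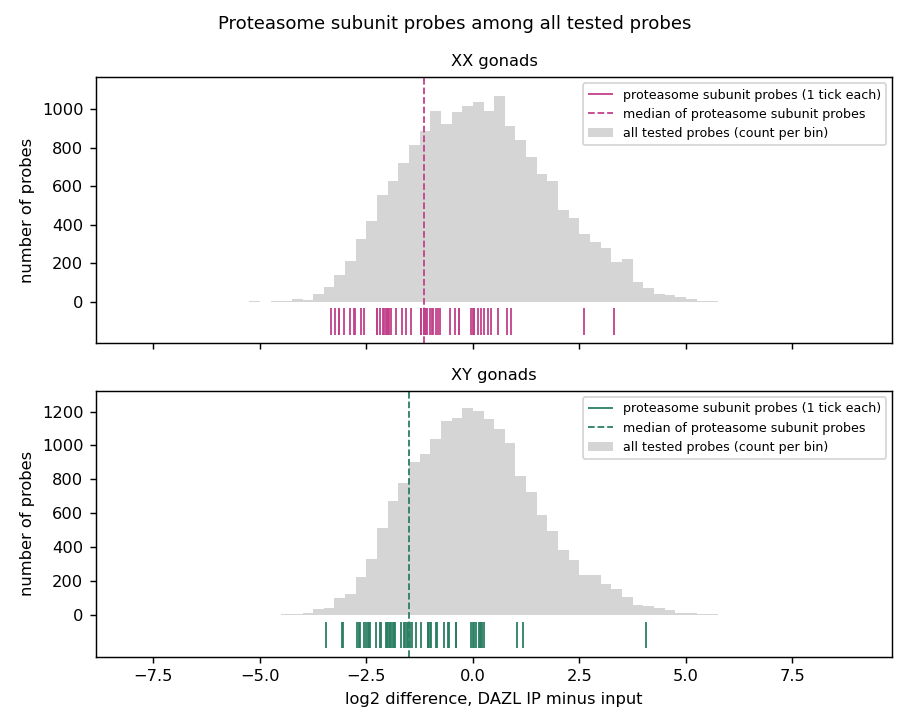
Number of all 18265 tested probes by their log2 difference of DAZL IP minus input (grey bars, vertical axis) in XX (top) and XY (bottom) gonads, with 1 tick below the axis for each of the 56 proteasome probes and a dashed line at their median. The medians lie at -1.15 and -1.50, left of the centre of all probes, and the ticks farthest to the right are Psma8 at 3.30 and 4.06.

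Of the 7 alpha subunit genes used in all tissues, 3 were depleted in XX and 2 in XY, beside 9.91% and 7.68% of all tested probes, and none was enriched, beside 14% and 10.2%. Among those above background on all 4 arrays of the sex, 2 of 6 and 1 of 5 were depleted, beside 7.15% and 5.82% of all such probes. Psma4 had signals of 2.43 and 1.88 in the XX inputs and -0.31 and -1.69 in the XX IPs, and of 2.80 and 2.47 in the XY inputs and -0.37 and 0.32 in the XY IPs. The IP arrays lay below the inputs with no overlap, and none of the IP arrays was well above background, so the inputs were at least 2.83-fold higher in XX (adjusted p = 0.000516) and at least 4.06-fold higher in XY (adjusted p = 0.00197). A second Psma4 probe gave bounds of 2.37-fold and 4.07-fold. Psma6 fell by 2.04 in XX and by 2.02 in XY, just past 4-fold, and lost its call without the first IP array of that sex (differences of -1.32 and -1.57), and also without the second XX input in XX and the first XY input in XY. Psma7 fell by 2.24 in XX, where the call was lost without the first IP array (-1.88), and differed by -1.60 in XY. Psma1, Psma3 and Psma5 had differences from -1.82 to -0.68 and passed the fold limit in neither sex. Psma2 was the member of this ring that did not go down: its signals were 6.54 and 6.86 in the XX inputs, 6.88 and 7.69 in the XX IPs, 6.86 and 7.03 in the XY inputs, and 6.56 and 7.48 in the XY IPs. The difference of 0.58 in XX and 0.08 in XY did not pass the test (adjusted p = 0.304 and 0.908).

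The beta ring holds the cutting sites, which Psmb5, Psmb6 and Psmb7 carry in most tissues. Of the 7 genes of this ring used in all tissues, 2 were depleted in XX and 1 in XY, beside 9.91% and 7.68% of all tested probes. None was depleted of the 5 in XX and 6 in XY that were above background on all 4 arrays, beside 7.15% and 5.82% of all such probes. Psmb7, the trypsin-like site, had signals of 3.20 and 3.06 in the XX inputs against -1.0 and 0.81 in the IPs, and of 3.79 and 3.73 in the XY inputs against -1.04 and 1.66 in the IPs. It fell by 3.23 in XX and 3.45 in XY (SE 0.76, adjusted p = 0.00484 and 0.00449), with 1 of the 2 IP arrays of each sex well above background, and the XX call was lost without the first XX IP array (-2.32). Without the first XY IP array the XY difference was -2.10, and without the second it was -4.80. Psmb5, the chymotrypsin-like site, had signals of 3.95 and 4.07 in the XX inputs against 1.05 and 1.88 in the IPs. It fell by 2.55 in XX (adjusted p = 0.000636) and differed by -1.89 in XY, where all arrays were above background. Psmb6, the caspase-like site, differed by -0.83 in XX and 0.02 in XY and passed no limit. Psmb3 came close to the limit in XX at -1.99 with each of its 2 probes. Psmb1 and Psmb4 had differences from -1.57 to -1.02. Psmb2 had -0.04 in XX and 0.26 in XY, with IP and input arrays overlapping in both.

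The core subunits restricted to certain tissues went in opposite directions. Psma8 encodes the alpha subunit that replaces Psma7 in germ cells of the testis, and its probe lies on chromosome 18. Its signals were 1.20 and 1.28 in the XX inputs, 4.03 and 5.07 in the XX IPs, 2.55 and 2.98 in the XY inputs, and 6.54 and 7.11 in the XY IPs. All arrays were well above background and the IPs lay above the inputs in both sexes with no overlap. Psma8 rose by 3.30 in XX, or 9.88-fold (SE 0.45, adjusted p = 0.000227), and by 4.06 in XY, or 16.7-fold (SE 0.45, adjusted p = 9.88e-05). A larger rise was found for 687 probes (3.76% of those tested) in XX and for 176 (0.964%) in XY. The rise had the same sign under all alternatives tried, from 1.20 to 3.82 in XX and from 1.77 to 4.34 in XY, with the smallest values when the background was corrected by normexp, where it passed the limits in neither sex. It also missed them in both sexes without moderated variances, and in XX when arrays were scaled to the 50th percentile. Psmb10, the immunoproteasome counterpart of Psmb7, had signals of 2.53 and 2.48 in the XX inputs against -1.17 and -0.47 in the IPs, none of them well above background. The XX inputs were therefore at least 3.60-fold higher (adjusted p = 0.00083). In XY, Psmb10 fell by 2.72 from inputs at 2.46 and 2.57 to IPs at -1.22 and 0.82, 1 of them above background (adjusted p = 0.00358), and the call was lost without the first XY IP array (-1.70). Psmb9, the counterpart of Psmb6, had no IP array of either sex well above background and was called in neither. For Psmb9 and Psmb8 no fold is given, and Psmb11, the thymus subunit, which the array carries under an older name outside the symbols searched, was below background on all arrays.

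**Figure D3:**
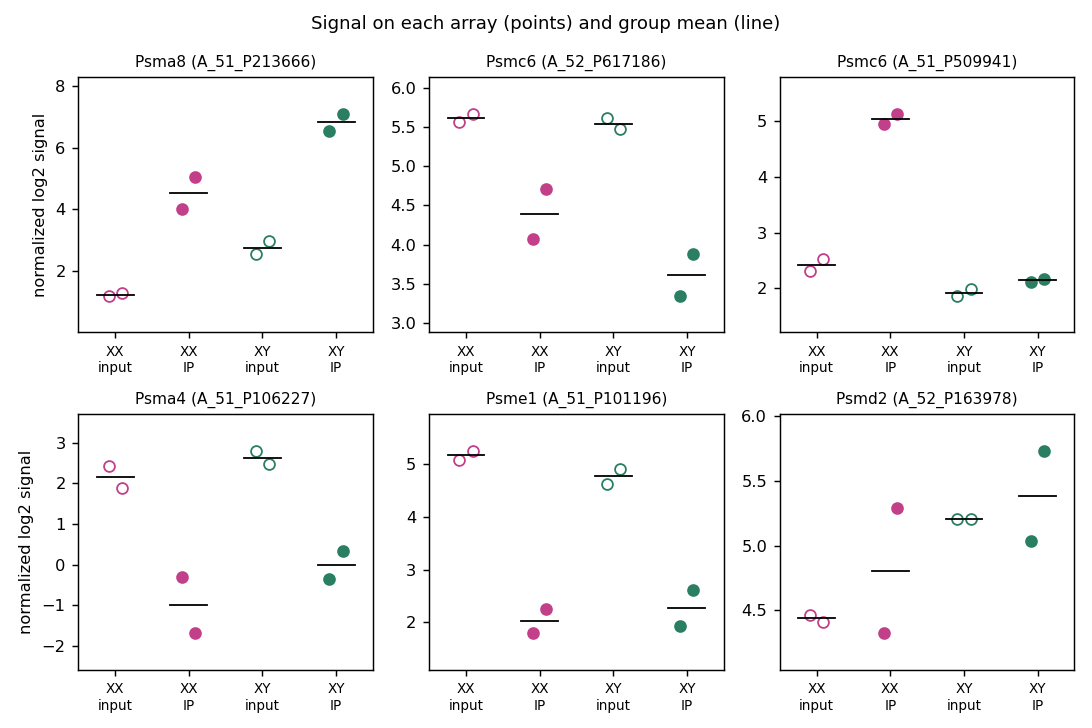
Normalized log2 signal on each of the 8 arrays (points) with the mean of each group (lines) for Psma8, both probes of Psmc6, Psma4, Psme1 and Psmd2, with open points for inputs and filled points for IPs. Psma8 rose in the IP of both sexes, the second Psmc6 probe rose in XX from 2.32 and 2.53 to 4.95 and 5.14 and had 2.12 and 2.17 in the XY IPs, Psma4 and Psme1 fell, and for Psmd2 the IP arrays enclosed the inputs. The vertical axes differ between panels.

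On the representing probes, all 6 ATPase genes of the regulatory particle had negative differences in both sexes, from -2.63 to -1.23 in XX and from -2.56 to -1.93 in XY, and 4 were depleted in each, beside 9.91% and 7.68% of all tested probes. Of those above background on all 4 arrays of the sex, 0 of 2 were depleted in XX and 2 of 3 in XY, beside 7.15% and 5.82% of all such probes. These ATPases form the ring that unfolds the substrate and threads it into the core. Psmc5 had signals of 3.43 and 3.45 in the XX inputs, 0.35 and 1.27 in the XX IPs, 4.18 and 4.41 in the XY inputs, and 1.10 and 2.37 in the XY IPs. The fall was 2.63 in XX (SE 0.49, adjusted p = 0.0013), and Psmc5 fell by 2.56 in XY (adjusted p = 0.00211), with no overlap and with 1 IP array of each sex above background, and the XY call was lost without the first XY IP array (-1.93). A weaker Psmc5 probe was called in XY with no IP array above background, which bounds the change at 1.65-fold. Psmc1 fell by 2.18 in XX and 2.04 in XY, and Psmc3 by 2.09 and 2.16, and all 4 of these calls were lost without the first IP array of the sex, with differences from -1.88 to -1.42, those of Psmc3 also without the first input array of the sex. Psmc4 fell by 2.02 in XX, a call lost without the first XX input (-1.86) or the first XX IP array (-1.64), and at -1.93 in XY it did not reach 4-fold. A second Psmc4 probe passed in both sexes with no IP array above background, which bounds the change at 1.24-fold and 1.66-fold, and the XY call was lost without the first XY input or the first XY IP array. Psmc2 fell by 2.28 in XY, where the call was lost without the first IP array (-1.98), and differed by -1.92 in XX. Only 1 IP array was above background for Psmc1, Psmc3 and the first Psmc4 probe in XX and for Psmc3 in XY. The bounds there were 4.54-fold, 2.68-fold and 3.26-fold in XX and 3.65-fold in XY.

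Psmc6 gave opposite results with its 2 probes. The probe with the higher mean signal, at chr14:44268689-44270515 of mm8, had signals of 5.57 and 5.67 in the XX inputs against 4.08 and 4.71 in the IPs, and of 5.61 and 5.47 in the XY inputs against 3.35 and 3.88 in the IPs. The IPs lay below the inputs in both sexes, and the differences of -1.23 and -1.93 did not reach 4-fold. The other probe, at chr14:44271332-44271391, had 2.32 and 2.53 in the XX inputs against 4.95 and 5.14 in the IPs, and 1.87 and 1.99 in the XY inputs against 2.12 and 2.17 in the IPs. It rose by 2.62 in XX, or 6.14-fold (SE 0.38, adjusted p = 0.000276), and differed by 0.22 in XY (adjusted p = 0.669), with all 8 arrays well above background. The XX rise came to 0.56 with normexp background correction and 0.61 with arrays scaled to the 50th percentile, where it passed no limit. The annotation of mm8 was not used here, so the exons these positions fall in are not given, and which transcript the second probe reports was not tested.

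The non-ATPase genes of the regulatory particle had 2 of 11 genes depleted in each sex, beside 9.91% of all tested probes in XX and 7.68% in XY. None of the 7 genes in XX and 6 in XY that were above background on all 4 arrays was depleted, beside 7.15% and 5.82% of all such probes. Psmd4, a receptor for ubiquitin chains, had signals of 3.21 and 2.93 in the XX inputs, -1.12 and 1.19 in the XX IPs, 3.59 and 3.72 in the XY inputs, and -0.63 and 1.78 in the XY IPs. It fell by 3.04 in XX and 3.08 in XY (SE 0.78, adjusted p = 0.00773 and 0.00919), with 1 of 2 IP arrays above background in each sex, and each call was lost without the first IP array of that sex, where the differences were -1.88 and -1.87. Psmd1, a large scaffold subunit, fell from 3.19 and 3.04 in the XX inputs to 0.72 and 1.01 in the IPs, a difference of -2.25 (SE 0.38, adjusted p = 0.000686), and its difference of -1.97 in XY did not reach 4-fold. Psmd13 had 0.94 and 0.60 in the XY inputs against -1.23 and -2.04 in the IPs (adjusted p = 0.00344). No IP array was above background, so the XY inputs were at least 1.23-fold higher.

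Psmd2, the scaffold on which ubiquitin receptors dock, had signals of 4.47 and 4.41 in the XX inputs, 4.32 and 5.29 in the XX IPs, 5.21 and 5.21 in the XY inputs, and 5.03 and 5.73 in the XY IPs. The arrays overlapped, and the differences were 0.36 and 0.17 (adjusted p = 0.516 and 0.779). Psmd11 differed by 0.13 in XX and -0.58 in XY. Psmd14, the deubiquitinase of the particle, differed by 0.18 in XX and -1.04 in XY, and its second probe, with 2.22 and 1.85 in the XY inputs against -1.20 and 0.92 in the IPs, was depleted in XY (difference -2.18, adjusted p = 0.0143) and stood at 0.03 in XX. That call was lost without the first XY input (-1.99) or the first XY IP array (-1.12). Psmd6, Psmd7 and Psmd12 had differences from -1.70 to -1.12 with the IPs below the inputs in both sexes and did not reach 4-fold. Psmd8 had no XX IP array above background, so the XX inputs were at least 2.36-fold higher (adjusted p = 0.00159), and its XY difference of -1.86 (adjusted p = 0.00303) fell short of 4-fold. Psmd3 differed by -0.93 and -0.05 (adjusted p = 0.112 and 0.946).

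Set side by side over probes, the core particle had a median of -1.80 in XX and -1.33 in XY over 19 probes, with 7 and 5 depleted and 1 enriched in each sex. The regulatory particle had a median of -1.14 in XX and -1.86 in XY over 25 probes, with 7 and 9 depleted and 1 and 0 enriched. Over all tested probes, 9.91% were depleted and 14% enriched in XX, and 7.68% and 10.2% in XY. Within the regulatory particle, the 9 ATPase probes had medians of -2.02 and -2.04 and the 16 non-ATPase probes -0.96 and -1.45. Restricted to probes above background on all 4 arrays of the sex, the core medians were -1.30 in XX (12 probes) and -1.05 in XY (13 probes), and those of the regulatory particle 0.03 (13 probes) and -0.81 (12 probes), with 2 and 1 core probes and 0 and 2 regulatory probes depleted. Of all such probes, 7.15% were depleted in XX and 5.82% in XY. With 1 probe per gene, the medians of the 17 core genes were -1.57 in XX and -1.22 in XY, and those of the 17 regulatory genes -1.65 and -1.93. In XX the core had the lower median over probes and the regulatory particle over genes. In XY the regulatory particle had the lower median over all its tested probes and over genes, and the core did so among probes that stood above background on all 4 XY arrays. No test of their difference was made, since subunits measured on the same arrays are not replicates.

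Among the activators, both genes of the interferon-inducible cap were depleted in both sexes with every array well above background. Psme1 had signals of 5.09 and 5.25 in the XX inputs, 1.79 and 2.25 in the XX IPs, 4.63 and 4.92 in the XY inputs, and 1.93 and 2.61 in the XY IPs. It fell by 3.15 in XX, or 8.87-fold (SE 0.41, adjusted p = 0.000189), and by 2.50 in XY, or 5.67-fold (adjusted p = 0.000879), with no overlap. Psme2, its partner in the cap, fell by 2.76 in XX and 2.47 in XY (SE 0.44, adjusted p = 0.000495 and 0.00138), and its second probe by 2.80 and 2.44. The calls of Psme1 and of the first Psme2 probe held with each array left out in turn. Psme3, a nuclear activator, had 0.80 in XX and 1.04 in XY with both IP arrays above the inputs, and did not pass (adjusted p = 0.273 and 0.171), and Psme4, a nuclear cap with a part in spermatogenesis, had -0.97 and -0.98. The representing probe of the inhibitor Psmf1 differed by -0.55 in XX and had no IP array above background in XY. Of the assembly chaperones of the regulatory particle, Psmd5 and Psmd10 had differences from -0.86 to -0.43, none past the limits, and no fold is given for Psmd9, which had no IP array above background in either sex.

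With each of the 8 arrays left out in turn, 7 of the 14 genes depleted in XX and 5 of the 12 depleted in XY kept their call every time. In XX these were Psma4, Psmb5, Psmb10, Psmc5, Psmd1, Psme1 and Psme2, and in XY Psma4, Psmb7, Psmd13, Psme1 and Psme2. Of these, Psma4 in both sexes, Psmb10 in XX and Psmd13 in XY had no IP array above background. Their kept calls do not measure the size of the fall, for which only the bounds above hold. All 14 genes depleted in XX and all 12 in XY kept a negative difference under every alternative tried. For 13 genes more than 1 probe was tested, and the probes had the same sign for 9 genes in XX and 10 in XY. Besides Psmc6, probes of Psmd12, Psmd9 and Psmf1 differed in sign in XX and those of Psmd12 and Psmd7 in XY, and each of these positive differences failed the test. Those of Psmd9 and Psmf1 came from probes with no IP array above background.

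The differences of the 42 genes in XX and in XY went together, with a Pearson r of 0.913 and a Spearman rho of 0.885, and an r of 0.872 without Psma8. This is a description across genes that share arrays within a sex, and genes are not independent replicates. The interaction contrast, (IP minus input in XX) minus (IP minus input in XY), was past an adjusted p of 0.05 for 1 of the 56 probes, the second Psmc6 probe, against 2.18% of all tested probes in this direction and 1.12% in the other. Its difference between the sexes was 2.40 (SE 0.53, 95% interval 1.24 to 3.56, adjusted p = 0.0329), and the call was lost in 10 of 19 alternatives, among them those without any 1 of the 4 input arrays. No representing probe passed and none had an unadjusted p under 0.05 in limma, while 3 of all 56 probes had. For Psma8 the difference was -0.75, with a 95% interval from -2.15 to 0.64, so that a stronger rise in XY by up to 2.15 or in XX by up to 0.64 lies within the error. The median SE of this contrast over the 42 genes was 0.638.

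In the inputs, the 56 probes had differences of XX minus XY from -1.52 to 0.74, with a median of -0.23 beside -0.0029 over all tested probes. Psma8 alone passed the test, against 6.1% of all tested probes lower in XX and 5.87% higher: its mean was lower in XX by 1.52 on the log2 scale (adjusted p = 0.0485), with 1.20 and 1.28 in XX against 2.55 and 2.98 in XY. This call was lost in 10 of 19 alternatives, among them those without any 1 of the 4 input arrays. The test shared its estimate of the spread with the IP arrays, which were the less repeatable. Fitted to the input arrays alone, 19 of the 56 probes passed, beside 44.1% of all tested probes. In whole gonads, fewer cells of a type and less of the RNA per cell cannot be told apart. Psmb5, with 3.95 and 4.07 in XX against 4.97 and 5.24 in XY, did not overlap between the inputs either, and its difference of -1.09 failed the test (adjusted p = 0.131).

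Other genes of the pathway, in a list of ubiquitin genes, ubiquitin receptors, shuttle factors, deubiquitinases, assembly factors and regulators of proteasome genes, lay on both sides of the input level. Of 34 genes, 33 were on the array and 32 were tested. In XX 4 were enriched and 1 depleted, and in XY 4 were enriched and 3 depleted, with medians of 0.12 and -0.07. Over all tested probes 14% were enriched and 9.91% depleted in XX, and 10.2% and 7.68% in XY. Zfand5, which binds the proteasome and stimulates it, had signals of 3.85 and 4.07 in the XX inputs, 8.14 and 8.80 in the XX IPs, 3.28 and 3.45 in the XY inputs, and 6.67 and 7.19 in the XY IPs. It rose by 4.51 in XX and 3.57 in XY (adjusted p = 6.12e-05 and 0.000121), and a second Zfand5 probe rose by 2.05 in XX and stood at 0.98 in XY. Over all alternatives Zfand5 ran from 2.50 to 4.84 in XX, missing the limits in 1 of 20, and from 1.54 to 3.83 in XY, missing them in 4 of 20. Nploc4 rose by 2.82 and 2.66, and missed the limits in 4 of 20 alternatives in each sex, with lowest values of 0.73 and 0.60. Ufd1, the partner of Nploc4 as an adaptor of the segregase Vcp, was depleted with no IP array above background, which puts its inputs at least 2.06-fold above the IPs in XX. In XY the bound was 2.94-fold, and that call was lost without the first XY input or the second XY IP array. Over all alternatives Ufd1 missed the limits in 3 of 19 in XX and in 7 of 19 in XY.

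Other enriched genes of the list passed in 1 sex each. The ubiquitin ligase gene Ube3a rose by 2.62 in XX and Akirin2, which brings proteasomes into the nucleus, by 2.11, while in XY Nfe2l1, a transcription factor that drives proteasome genes, rose by 2.04 and the shuttle factor gene Rad23b by 2.03. The values of these genes in the other sex were 1.72 for Ube3a, 1.46 for Akirin2, 1.71 for Nfe2l1 and 1.86 for Rad23b, all positive and short of 4-fold. Of the other Ube3a probes, 1 rose in both sexes, by 3.95 and 3.60, and 1 rose by 2.29 in XX and stood at 1.07 in XY. Rad23b had a probe at -0.09 in XX and 0.19 in XY and another that rose by 2.68 in XX and stood at 1.91 in XY. Akirin2 lost its call without the second XX IP array, and Nfe2l1 and Rad23b theirs without the first XY input or the second XY IP array. Over all alternatives Ube3a in XX ran from 0.55 to 2.80 and missed the limits in 4 of 20, Akirin2 ran from 0.11 to 2.56 and missed the limits in 7 of 20, Nfe2l1 ran from 0.03 to 2.40 and missed them in 8 of 20, and Rad23b ran from -0.03 to 2.37, missing them in 7 of 20 and turning negative in 1. Uchl5, a deubiquitinase of the regulatory particle, fell by 2.42 in XY and differed by -1.99 in XX. Ubqln2, a shuttle factor, had signals of 1.05 and 1.24 in the XX inputs against 2.30 and 2.75 in the IPs, and of 0.89 and 1.24 in the XY inputs against -1.36 and -0.63 in the IPs. With no XY IP array above background the XY inputs were at least 1.51-fold higher (adjusted p = 0.00282), a call lost in 5 of 19 alternatives, among them those without the second XY input or the first XY IP array. The difference of 1.38 in XX did not reach 4-fold. The assembly factors Psmg1, Psmg2 and Psmg3, which the array carries under older names, had differences from -1.44 to 0.43, and Pomp, which matures the core, had -0.88 and -0.05. Adrm1, a ubiquitin receptor of the regulatory particle, had -1.67 in XX and -1.31 in XY.

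**Figure D4:**
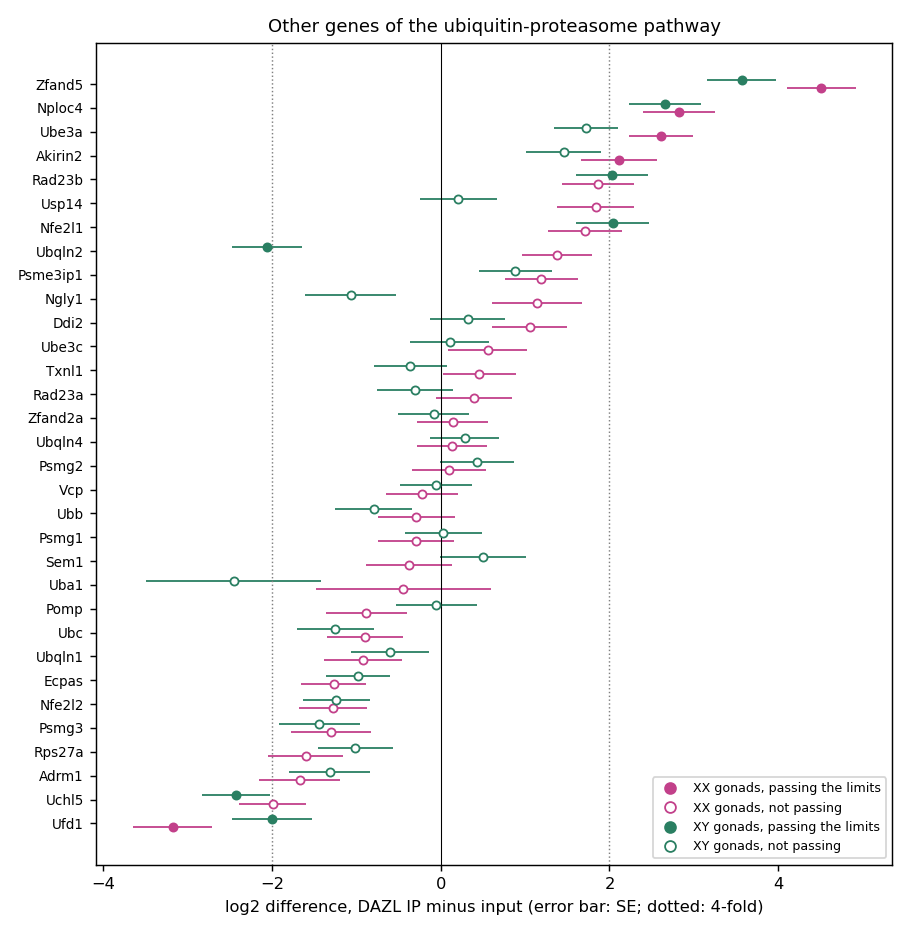
Log2 difference of DAZL IP minus input for the 32 tested other genes of the ubiquitin-proteasome pathway, in XX (pink) and XY (green) gonads, with the standard error as bars, 4-fold as dotted lines and filled points for those past the limits. The genes spread on both sides of 0, from Ufd1 at -3.18 to Zfand5 at 4.51 in XX. Ufd1 had no IP array above background, so the size of its fall was not measured.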

How the data were processed

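RNA of 4 groups of 2 gonad samples was measured on Agilent 1-colour whole mouse genome arrays, and groups were taken from the sample titles. The deposited scanner files give signal intensity per spot, background-subtracted and not normalized between arrays, and name Feature Extraction 9.5.3.1 in their headers (9.5 per the labels). The authors' deposited table holds log2 values, in which low values had been raised to 1 and arrays scaled to the 75th percentile, per their methods. Its correlation with the values used here was at least 0.99996 on each array, and it served as an alternative. Here outlying spots were left out (73 of 41174 probes), signals under 1 set to 1, spots of a probe averaged, and log2 signals centred on the 75th percentile of each array's non-control probes. The number of arrays limits the precision.

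One mean per group was fitted to all 8 arrays with limma 3.58.1 in R 4.3.3 and moderated by empirical Bayes, with two-sided tests and Benjamini-Hochberg adjustment over 18265 probes. The fold and p limits follow the study, with an adjusted p. The procedure was tested on simulated data. A probe not well above background on any array of a group has a bound there, set on each array by the dimmest probe that did stand well above background, or by the probe itself where it was brighter. A gene is represented by its probe of highest mean signal. Genes named are those past a limit, the 5 largest rises and falls per sex among genes above background on all 4 arrays, the tissue-restricted members, and listed pathway genes past a limit. Psmb5 in the inputs and the Psmg genes, Pomp and Adrm1 were named in addition, after their values were seen. The members, the pathway list and the marker lists of germ, Sertoli, ovarian supporting, Leydig, endothelial, erythroid and leukocyte cells were chosen with earlier results of these data known, and 1 gene of the pathway list is not reported here. Probes were named by the files and, for pathway and marker genes, the gene table of GRCm38.p6, and positions are those of mm8 in the files. Alternatives varied the background correction, scaling, floor, filter, values, arrays fitted, variance moderation, block and each array.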

Additional observations from a re-analysis of the deposited data

Results flagged for a closer look

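The second Psmc6 probe differed between the sexes in the test of the difference itself: its log2 IP over input was higher in XX than in XY by 2.40 (SE 0.53, adjusted p = 0.0329). Its IP arrays lay above the inputs in both sexes, with values of 4.95 and 5.14 against 2.32 and 2.53 in XX and of 2.12 and 2.17 against 1.87 and 1.99 in XY. Over the alternatives the difference ran from 1.15 to 2.51, and the call was lost in 10 of 19, with an adjusted p of up to 0.76. The first Psmc6 probe differed by 0.70 in the same contrast (adjusted p = 0.628).

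Ubqln2 had a fitted difference between the sexes of 3.44 in the same test (SE 0.59, adjusted p = 0.0118), with a positive difference in XX and a negative one in XY. Neither XY IP array was above background, so the size of this difference was not measured. Over the alternatives it ran from 0.58 to 4.46, and the call was lost in 8 of 18, among them those without the first XX input or the second XY input array.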

How the results depend on the processing

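Counts are member probes of 56 unless stated, and 2 and 17 were enriched and depleted in XX, 1 and 17 in XY, 1 differed between the sexes and 1 between the inputs. With normexp background correction, 0 were enriched in either sex (0.433% and 0.356% of all probes) and 27 were depleted in XX (11.3%), 0 differed between the sexes (0 at an unadjusted p under 0.05) and 0 between the inputs (7 unadjusted), and the XX median was -1.79. With outlying local backgrounds replaced as well, 0 were enriched in either sex (0.433% and 0.438% of all), 27 in XX and 30 in XY were depleted (11.3% and 10.6%), 0 differed between the sexes (3 unadjusted), the medians were -1.79 and -2.06, and Rad23b in XY turned to -0.032 from 2.03; the cause was not tested. Quantile normalization gave 2 sex differences (5.00% of all) and an XX median of -1.95, with the median of all probes at -0.74. The 50th percentile gave 0 enriched in XX (1.03% of all), 44 depleted in each sex (47.3% and 45.9%), medians of -3.16 and -3.37, 0 sex differences (1 unadjusted) and 0 input differences (1 unadjusted), with medians of all probes at -1.92 and -1.90. The 75th percentile of probes above background on all arrays gave 0 sex differences (10 unadjusted) and 2 input differences (10.3% of all), and a common floor 0 input differences (4 unadjusted). Without a filter, 10 of 65 were enriched in XX and 9 in XY, beside 56.8% and 54.4% of all probes, while 0 differed between the sexes (2 unadjusted) and 0 between the inputs (2 unadjusted). With only probes above background on all 8 arrays, 5 of 26 were depleted in each sex, beside 8.87% and 5.49% of all such probes. Fitting only the input arrays gave 19 input differences, beside 44.1% of all probes. Without moderated variances limma made 0 calls in either IP contrast and direction and 0 for the sexes (2 unadjusted), and 2 for the inputs (8.47% of all). Leaving out each array in turn gave 2 to 2 enriched and 10 to 22 depleted in XX, 1 to 1 and 9 to 22 in XY, 0 to 2 sex differences and 0 to 1 input differences, with medians from -1.45 to -1.03 in XX and from -1.72 to -1.12 in XY.

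With the replicate number as a block within each sex, 2 member probes differed between the sexes, beside 8.06% of all tested probes, and the block changed no other call. Deviations of same-numbered arrays correlated at 0.07 in XX and 0.09 in XY, and with 2 pairs per sex the samples share only a number. No paired analysis was possible for the inputs because the numbers do not link the sexes. The authors' deposited table gave the same counts as the scanner values. Signal over background limits the depleted members: 4 of the 17 depleted probes in XX and 5 of the 17 in XY were above background on no IP array. Another 8 in XX and 6 in XY were so on only 1. Bounded in the same way, Psmc3 (2.68-fold), Psmc4 (3.26-fold) and Psmd4 (3.90-fold) in XX fell short of 4-fold. In XY Psmb10 (3.15-fold), Psmc3 (3.65-fold) and the second Psmd14 probe (2.18-fold) did so. The others, Psmb5, Psmb7, Psmc1, Psmc5 and Psmd1 in XX and Psmb7, Psmc5 and Psmd4 in XY, had bounds over 4-fold.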
